A study of Mus musculus with 18 samples.

Results

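The genes followed here are the interferon-β gene Ifnb1, the 4 receptor chains Ifnar1, Ifnar2, Ifngr1 and Ifngr2, and the 4 JAK kinases Jak1, Jak2, Jak3 and Tyk2. They were chosen by name, and the 9 genes make up the set out of 21734 protein-coding genes in the count table. RNA was sequenced from bone marrow-derived macrophages (BMDMs), cells grown out of marrow for 8 to 9 days in medium with 10 ng/ml M-CSF, the growth factor that drives macrophage differentiation. Donors were mice aged 6 to 7 months, each on a mixed 129 and B6 background, and the founders of both mutant lines had been crossed back to C57BL6/J for 3 rounds. WT mice carry the normal miR-146a gene, KO mice lack it, and 3′F mice carry a miR-146a whose seed is kept while its 3′ part is altered. Both mutant alleles were made in embryonic stem cells, are in every cell of the mouse and were kept as separate colonies, and the labels tie 3 mice to each genotype. The miR-146a hairpin itself is no row of the protein-coding table, so the alleles were not checked here. BMDMs of each genotype received fresh medium alone (resting) or with 1 ng/ml LPS and were harvested 16 h later, which gives 6 groups of 3 libraries. The question for these 9 genes was whether the ligand, a receptor chain or a kinase differed in resting KO BMDMs, whose interferon-induced genes stood high.

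Type I interferons such as interferon-β are secreted proteins that bind a receptor made of IFNAR1 and IFNAR2, and the kinases TYK2 and JAK1 sit on the inner ends of these chains. Interferon-γ, the type II interferon, binds IFNGR1 and IFNGR2, which carry JAK1 and JAK2. The kinases phosphorylate STAT proteins such as STAT2, which together with IRF9 switches on antiviral genes such as Ifit1, Isg15 and Mx1. LPS, a bacterial cell wall component sensed by TLR4, makes macrophages transcribe Ifnb1 for a short time, and the secreted protein then acts back on the cells. JAK3 works with the common γ chain of interleukin receptors and is not a kinase of the interferon receptors.

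The mature miR-146a and its relative miR-146b are shown because the seed, bases 2 to 8 in capitals, is the part that the 3′F allele keeps and the KO allele removes. Both sequences are from RefSeq on GRCm38.p6, at chr11:43374435-43374456 on the minus strand and at chr19:46342790-46342811 on the plus strand, and they differ at 2 of 22 positions, outside the seed.
mmu-miR-146a-5p: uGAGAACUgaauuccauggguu
mmu-miR-146b-5p: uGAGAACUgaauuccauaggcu
A 7mer or 8mer match to this seed was searched in the longest annotated 3′ UTR of each gene (Gencode M21). None of the 9 genes held one, against 18.2% of 20993 protein-coding genes. The single shorter match, a 6mer, lies in the last exon of Ifnar2 at chr16:91404181-91404186 (GRCm38, plus strand), shown here with the matched bases in capitals.
Ifnar2 6mer: tttctgaggGTTCTCcatgatgaa

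The promoter stretches below are shown because Ifnb1 is the gene that LPS signalling switches on directly and because Ifnar2 and Ifngr2 are the other genes of the set with a match to a searched motif. The 250 bases before each RefSeq start (GRCm38.p6) were searched on both strands for AANNGAAA, the core bound by IRF proteins, for the same core as a longer form of paired GAAA words (a match that overlaps with AANNGAAA), for TTCNNNGAA, the core of the interferon-γ-activated sequence, and for the kappaB consensus. Of 32851 promoter windows of that length, 21.31% held AANNGAAA, 2.98% the paired form, 7.02% TTCNNNGAA and 3.90% the kappaB consensus. Capitals mark the matches.
Ifnb1 (chr4:88522885-88522964, minus strand): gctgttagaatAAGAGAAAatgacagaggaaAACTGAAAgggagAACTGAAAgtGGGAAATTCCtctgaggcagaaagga
Ifnar2 (chr16:91372543-91372602, plus strand): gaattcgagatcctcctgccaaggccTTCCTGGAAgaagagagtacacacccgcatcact
Ifngr2 (chr16:91546959-91547018, plus strand): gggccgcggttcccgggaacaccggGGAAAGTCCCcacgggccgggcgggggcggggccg
The Ifnb1 stretch held 3 matches to AANNGAAA followed by a kappaB match. The Ifnar2 stretch held a TTCNNNGAA match and the Ifngr2 stretch a kappaB match on the minus strand. The windows of Ifnar1, Ifngr1, Jak1, Jak2, Jak3 and Tyk2 held none of these letters.

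The genes lie on 6 chromosomes, and positions are those of Gencode M21 on GRCm38. Ifnb1 (ENSMUSG00000048806) is at chr4:88522025-88522774 on the minus strand. Ifnar2 (ENSMUSG00000022971, chr16:91372783-91405589), Ifnar1 (ENSMUSG00000022967, chr16:91485238-91507441) and Ifngr2 (ENSMUSG00000022965, chr16:91547072-91565623) lie on the plus strand within 192.8 kb, together with the interleukin-10 receptor chain gene Il10rb between Ifnar2 and Ifnar1. Ifngr1 (ENSMUSG00000020009) is at chr10:19591949-19610229 and Jak1 (ENSMUSG00000028530) at chr4:101152367-101265282. Jak2 (ENSMUSG00000024789) is at chr19:29251828-29313080, Jak3 (ENSMUSG00000031805) at chr8:71676296-71690575 and Tyk2 (ENSMUSG00000032175) at chr9:21104068-21131243. Reads were counted over the exons of a gene by strand. Ifnar2 overlaps Gm21970, Jak3 overlaps Insl3 and Jak1 overlaps a pseudogene on the same strand, so reads of those stretches are uncertain.

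Libraries held 4071084 to 19818043 counts. 2 resting libraries stood apart from their groups. In resting KO replicate 3 the interferon-induced genes were far above the other resting KO libraries (values below), and resting 3′F replicate 3 was the shallowest library and the lowest of the 9 resting libraries for 6 of the 8 receptor and kinase genes. Results that rest on them are also given without them. The 7 macrophage markers (Adgre1 and Csf1r among them) summed to 31650 to 86480 CPM over all groups, CPM being the reads of a gene relative to the library total, scaled by TMM. Defining markers of T cells (Cd3d, Cd3e, Cd3g, Cd8a) were at 3 counts or fewer in each library. So were the B cell genes Cd79a and Ms4a1 and the NK cell genes Gzma and Nkg7. Other genes of these lists exceeded 3 counts in some libraries. The whole T cell list summed to at most 11.3 CPM, the B cell list to at most 0.869 and the NK cell list to at most 1.64. The 6 neutrophil markers summed to 13.3 to 21.8 CPM in resting WT, 14.3 to 52.4 in resting KO and 13.2 to 65.3 in resting 3′F, with Ly6g at 0 in each resting library. With LPS they summed to 31.8 to 38.9 CPM in WT, 38.1 to 63.7 in KO and 28.0 to 32.5 in 3′F. None of the 4 neutrophil markers tested was called between KO and WT at rest or with LPS, and their part in the results was not tested. Because these are bulk cultures, fewer cells that express a gene and less RNA per cell cannot be told apart.

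Ifnb1 RNA was scarce 16 h after LPS and scarcer at rest. In resting WT the 3 libraries held 0, 0 and 0 counts, in resting KO 0, 2 and 6, and in resting 3′F 1, 0 and 2. With LPS the counts were 10, 5 and 11 in WT, 24, 30 and 13 in KO, and 10, 1 and 3 in 3′F, each in the order of replicates 1 to 3. Every KO library with LPS lay above every other library of the series, while the counts of WT and 3′F with LPS overlapped. Summed over a group, resting KO held 8 counts with an exact Poisson 95% interval of 3.45 to 15.8, resting 3′F held 3, and resting WT held 0 of 34283945 counts, for which the exact upper limit is 3.69 counts. These intervals and floors cover counting error only.

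**Figure D1:**
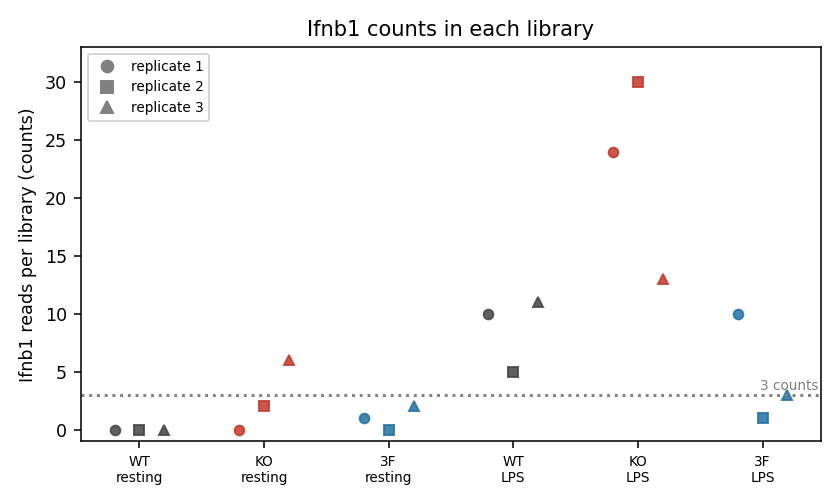
Reads of Ifnb1 in each of the 18 libraries, in counts, by group. Point shapes mark replicates 1 to 3 and the dotted line marks 3 counts, the level treated as the floor. The 3 resting WT libraries are at 0, resting KO replicate 3 is at 6, and the KO libraries with LPS run from 13 to 30.

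At rest the main test called no difference between genotypes for Ifnb1. Ifnb1 passed the filter on low counts through the KO libraries with LPS. Tests of KO with LPS are therefore not independent of that choice, and their values are not given for Ifnb1. Its fitted changes against groups at 0 depend on the prior count, so none is given. At rest the adjusted p for KO against WT was 0.213 (edgeR quasi-likelihood test, Benjamini-Hochberg adjustment over 11357 genes), with 2 of 3 KO libraries above every WT library. With LPS the level was 1.58 ± 0.625 CPM in KO, 0.615 ± 0.243 in WT and 0.391 ± 0.339 in 3′F (SD, n = 3 each). In WT the mean level with LPS was at least 2.59-fold higher than 3 counts per resting library. Since the libraries with LPS brought Ifnb1 past the filter, no test of its LPS response is given.

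The other interferon genes were at or near 0. Of the 20 other ligand genes searched (Ifna genes, Ifnab, Ifne, Ifnk, Ifnz, Ifng, Ifnl2 and Ifnl3), 9 had 0 counts in all 18 libraries and the rest summed to 34 counts. The highest count in a library was 5, for Ifna7 in resting 3′F replicate 3. Ifng, the type II ligand, had 1 count in the whole series. None of the 20 passed the filter. The Ifna genes are near-identical copies and reads that map to several places were dropped in counting, so a low count of these genes is uncertain.

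The type I receptor chain Ifnar1, which docks TYK2, was the member nearest to a call in resting KO against WT. Its level was 276, 271 and 295 CPM in resting WT replicates 1 to 3, 424, 435 and 301 in resting KO, and 312, 307 and 232 in resting 3′F. Replicates 1 and 2 of resting KO stood well above the others, replicate 3 lay just above the highest WT library, and 3′F overlapped WT. The log2 difference of KO from WT was 0.46 ± 0.16 (SE), a 1.38-fold level (adjusted p 0.0782). Without resting KO replicate 3 it was 0.61 (adjusted p 0.0188), and without resting 3′F replicate 3 as well it was 0.63 (adjusted p 0.00261). Over the 13 alternatives Ifnar1 ran from 0.37 to 0.63 and was called in 4 of them, with adjusted p values from 0.00101 to 0.217.

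Ifnar2, the high-affinity chain that docks JAK1, was not called at rest. It stood at 71.5 ± 8.63 CPM in resting WT, 82.2 ± 3.16 in resting KO and 63.1 ± 12.7 in resting 3′F (SD, n = 3 each). The KO libraries, at 78.7 to 84.9 CPM, lay above all WT and 3′F libraries by a small margin. The log2 difference of KO from WT was 0.20 ± 0.16 (adjusted p 0.492) and that of KO from 3′F 0.37 ± 0.16 (adjusted p 0.121), and neither was called under any alternative.

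Of the type II receptor chains, the resting KO and WT libraries separated for Ifngr2 and overlapped for Ifngr1. Ifngr2, the signalling chain that docks JAK2, was at 164, 142 and 168 CPM in resting WT, 207, 193 and 195 in resting KO, and 173, 179 and 135 in resting 3′F. All 3 KO libraries lay above every WT and 3′F library, and WT and 3′F overlapped. The log2 difference of KO from WT was 0.33 ± 0.12 (adjusted p 0.099). Without both libraries that stood apart it was 0.36 (adjusted p 0.0273). Ifngr1, the ligand-binding chain, was at 227, 223 and 234 CPM in resting WT against 297, 252 and 218 in resting KO. Resting KO replicate 3 was the lowest of the 9 resting libraries for Ifngr1 while replicate 1 was the highest, and the log2 difference was 0.17 ± 0.11 (adjusted p 0.403). Without both libraries that stood apart it was 0.29 (adjusted p 0.0475).

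Among the kinases, a single resting KO library held most of the difference for Jak2 and Tyk2. Jak2, the kinase of the interferon-γ and many cytokine receptors, was at 59.6, 61.4 and 71.8 CPM in resting WT, 73.3, 73.6 and 126 in resting KO, and 58.7, 61.1 and 43.1 in resting 3′F. Tyk2, the kinase on IFNAR1, was at 74.0, 67.5 and 72.9 CPM in resting WT, 77.5, 74.3 and 146 in resting KO, and 72.8, 68.7 and 79.4 in resting 3′F. For both genes replicate 3 held the excess of resting KO, and replicates 1 and 2 lay close to the highest WT library. The log2 difference of KO from WT was 0.50 ± 0.20 for Jak2 (adjusted p 0.137) and 0.47 ± 0.19 for Tyk2 (adjusted p 0.143). Without resting KO replicate 3 the difference was 0.19 for Jak2 (adjusted p 0.565) and 0.09 for Tyk2 (adjusted p 0.713). Jak1, which serves both receptors, was at 230 ± 20.3 CPM in resting WT and 261 ± 15.6 in resting KO, and Jak3 at 11.4 ± 2.53 and 13.4 ± 1.25 (SD, n = 3 each). Their log2 differences were 0.18 ± 0.14 (adjusted p 0.473) and 0.23 ± 0.18 (adjusted p 0.497).

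**Figure D2:**
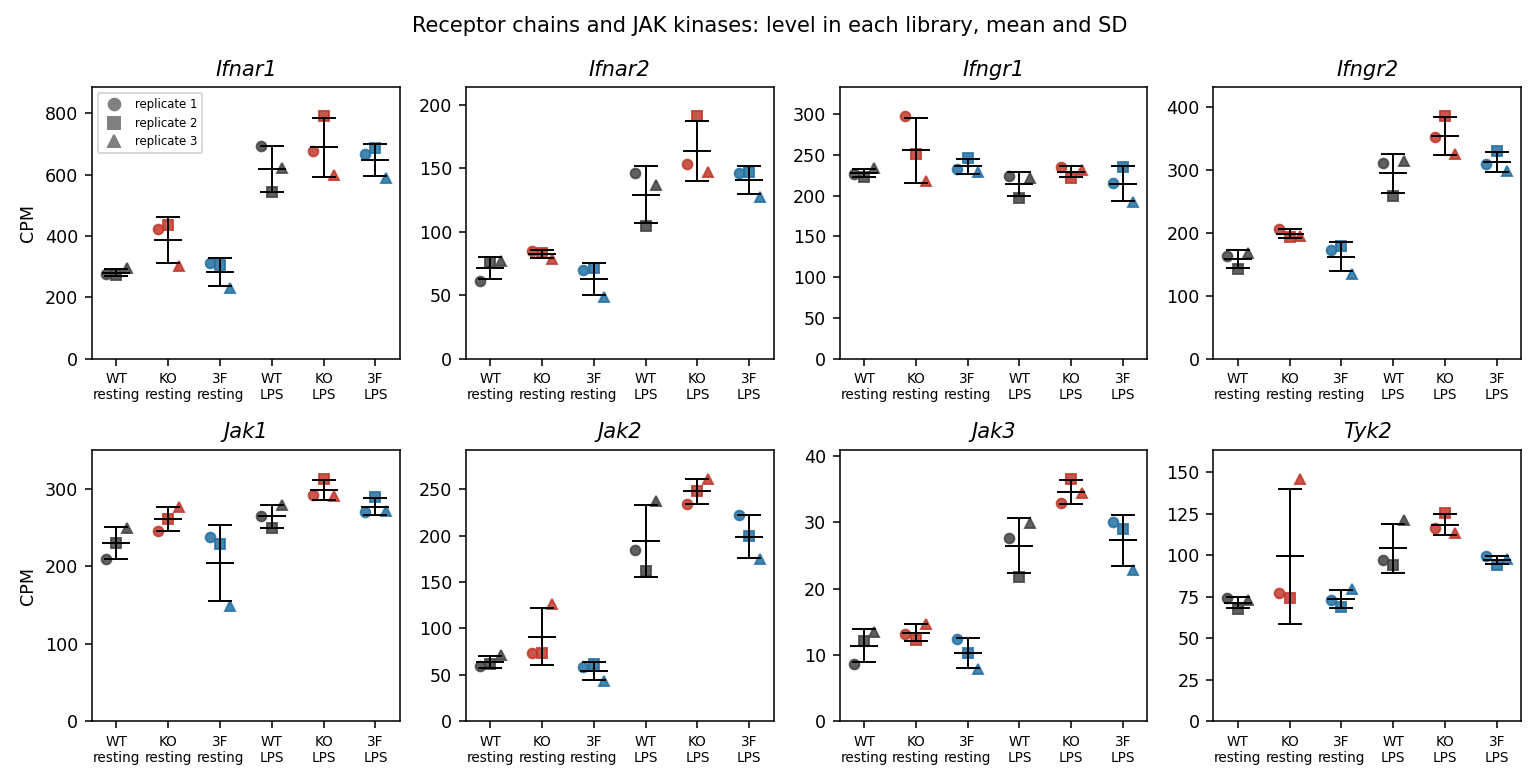
Level of the 4 receptor chains and 4 JAK kinases in CPM (TMM-scaled) in each library, on linear axes from 0. Points are libraries with shapes for replicates 1 to 3, and bars give the mean and SD of 3 libraries. Resting KO replicate 3 is the lowest KO library for Ifnar1 (301 CPM) and the highest for Jak2 (126 CPM) and Tyk2 (146 CPM).

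Among the members, 0 of 9 were called in resting KO against WT, where 9.4% of all 11357 genes tested were called. 4 of the 9 had an unadjusted p under 0.05, as did 23.5% of all genes. DESeq2 called 2 (Ifnar1 and Ifngr2) and 12.2% of the genes it tested, and limma-voom with quality weights called 3 (Ifnar1, Ifngr1 and Ifngr2) and 19.9% of all genes. Ifnb1, at 0 counts in resting WT, could not have a fitted difference below 0. For the other 8 members the difference was above 0, with a median of 0.28 against 0.02 over all genes tested. For 5 members (Ifnar1, Ifnar2, Ifngr2, Jak2 and Tyk2) every KO library lay above every WT library, which held for 13.7% of all genes tested. Without resting KO replicate 3 the count of members called was 1 (Ifnar1), where 808 of 11493 genes were called. Without resting KO replicate 2 it was 1 (Tyk2), where 1047 of 11515 genes were called. Without both libraries that stood apart it was 3, where 1669 of 11411 genes were called. The macrophage markers summed to 60310 to 61300 CPM in resting KO and 31650 to 47680 in resting WT. Most of this sum was Lyz2, at 53931 ± 1309 CPM in KO and 35157 ± 8143 in WT (SD, n = 3 each). Of the 7 markers Csf1r was called higher in resting KO (3048 against 1744 CPM) and Itgam lower (150.4 against 246 CPM), and Adgre1 stood at 1578 against 1535 CPM. The part of these markers in the differences was not tested.

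Against 3′F, 1 of 9 members was called in resting KO, where the share of all genes was 12.9%, while 6 had an unadjusted p under 0.05, as did 31.4% of all genes. The member called was Jak2, higher by 0.73 ± 0.20 (log2 and SE, adjusted p 0.0271), and 3 of 3 KO libraries lay above every 3′F library, as held for 15.8% of all genes. This call was kept by 9 of 13 alternatives and lost without either library that stood apart. The difference was 0.42 (adjusted p 0.111) without resting KO replicate 3, and 0.60 (adjusted p 0.0903) without resting 3′F replicate 3. The comparison shares its KO libraries with the one against WT. Ifnar1 was higher by 0.45 ± 0.16 (adjusted p 0.0688), by 0.60 (adjusted p 0.0237) without resting KO replicate 3 and by 0.33 (adjusted p 0.228) without resting 3′F replicate 3. The other members ran from 0.11 for Ifngr1 to 0.43 for Tyk2 among the receptors and kinases. In resting 3′F against WT 0 of 9 were called, by edgeR and by every alternative, 0 had an unadjusted p under 0.05 (4.9% of all genes did), and 0% of all genes were called. The receptor and kinase differences there ran from −0.23 to 0.05, and the interval of the difference for Ifnar1 was −0.32 to 0.35.

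**Figure D3:**
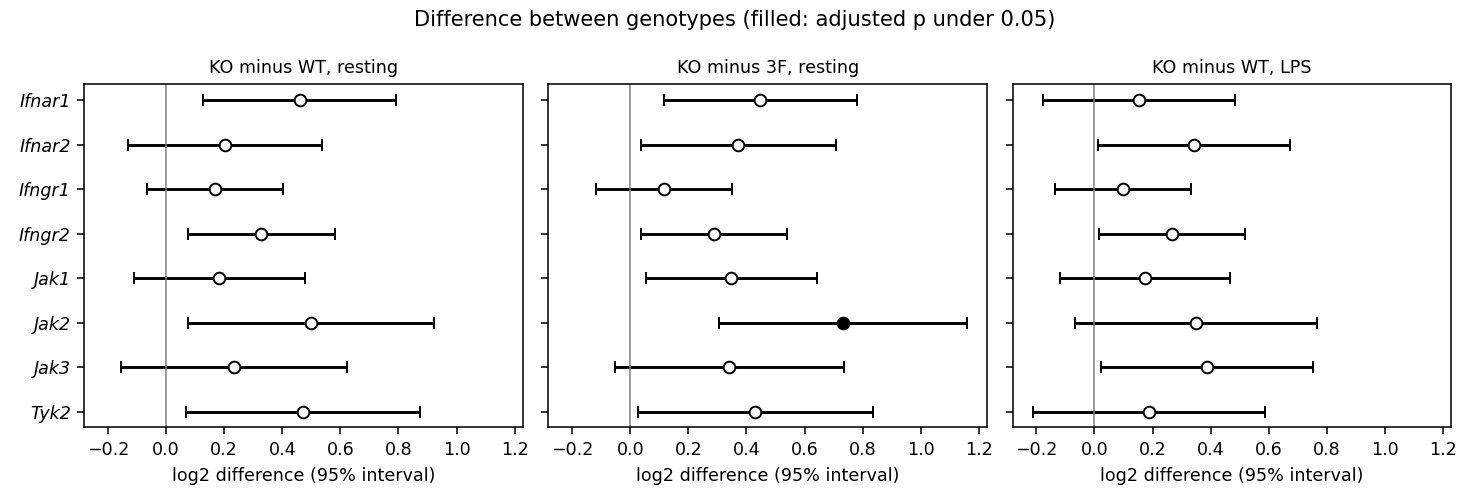
Fitted log2 differences between genotypes for the 8 receptor and kinase genes with 95% intervals from the edgeR fit of 18 libraries; filled points passed an adjusted p of 0.05. Jak2 in resting KO minus 3F (0.73) is the filled point, and all points lie above 0.

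The interferon-induced genes themselves were high in resting KO, unevenly between its libraries. The CPM of 20 genes induced through the type I receptor, such as Ifit1 and Mx1, summed to 280, 303 and 507 in resting WT, 1264, 935 and 15870 in resting KO, and 467, 331 and 416 in resting 3′F. All 3 KO libraries lay above all 6 others, and replicate 3 reached the range of 4366 to 21130 of WT with LPS. In the test 19 of the 20 genes were higher in resting KO than in WT, with a median difference of 4.46, where 9.4% of all genes were called. The largest differences were those of the antiviral genes Mx1 (6.34 ± 1.36, adjusted p 0.00886), Ifit3 (5.68 ± 1.1, adjusted p 0.00584) and Ifit2 (5.32 ± 1.15, adjusted p 0.0093). Without replicate 3, 12 of the 20 genes were called, with a median of 1.92, where 808 of all 11493 genes tested were called. Ifit3 was among these 12, while Mx1 and Ifit2 were not. Beside these sums, Ifnb1 stood at 0, 2 and 6 counts in the same 3 KO libraries, Ifnar1 was highest in replicates 1 and 2, and Jak2 and Tyk2 were highest in replicate 3. In replicates 1 and 2, whose sums were above every WT library, Ifnb1 was under the floor of 3 counts and Tyk2 stood at 77.5 and 74.3 CPM, against 67.5 to 74.0 in the WT libraries. Ifnar1 (424 and 435 CPM, against 271 to 295 in WT), Ifnar2, Ifngr1, Ifngr2 and Jak2 also lay above every WT library in these replicates. Jak1 and Jak3 overlapped WT there. Whether ligand, receptor or kinase levels set the interferon-induced genes was not tested.

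**Figure D4:**
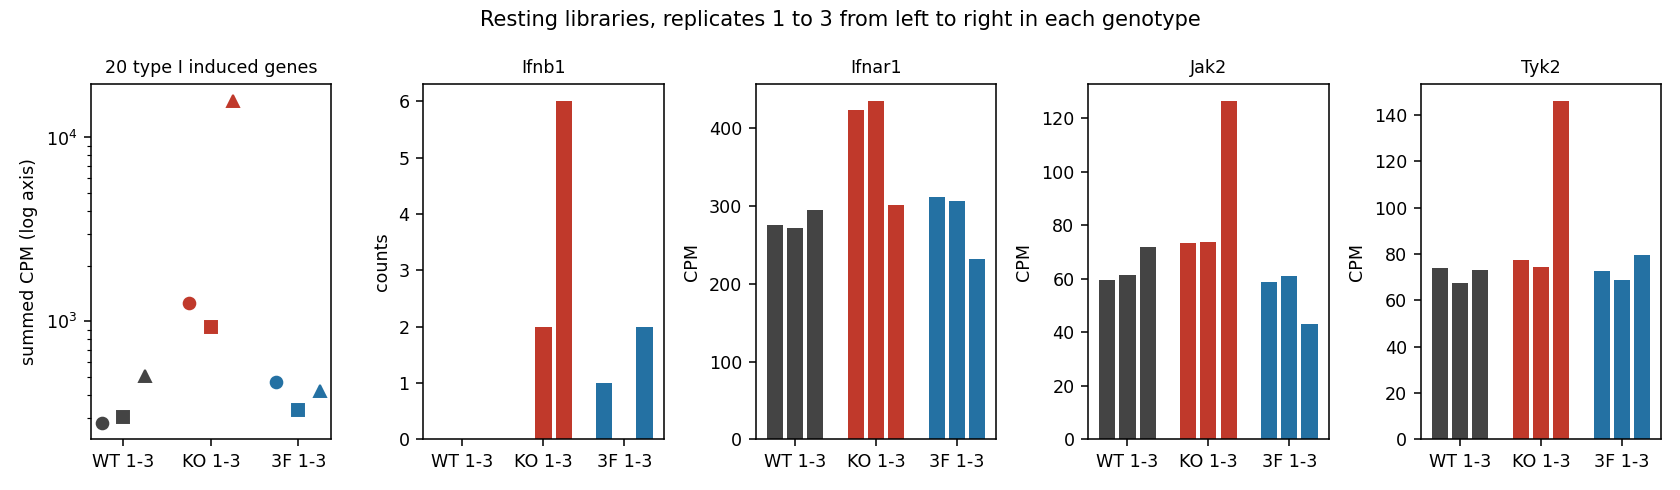
The 9 resting libraries, replicates 1 to 3 from left to right in WT, KO and 3F: summed CPM of 20 genes induced through the type I interferon receptor (log axis), Ifnb1 counts, and CPM of Ifnar1, Jak2 and Tyk2 (bars from 0). Resting KO replicate 3 is highest for the summed genes (15870 CPM), Ifnb1 (6 counts), Jak2 and Tyk2, and is the lowest KO library for Ifnar1 (301 CPM).

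Other genes of the pathway were called in the same resting comparison, where 9.4% of all genes were called, and 808 of 11493 without resting KO replicate 3. Of the signal transducers, Stat2 exceeded its WT level in KO by 2.31 ± 0.53 (log2, SE, adjusted p 0.0127) and Irf9 by 1.17 ± 0.20 (adjusted p 0.00288). Both are themselves interferon-induced, and without resting KO replicate 3 Irf9 was called and Stat2 was not. Stat2 was at 26.0, 32.2 and 39.3 CPM in resting WT and 72.8, 53.8 and 357 in resting KO. Of 10 inhibitors tested Usp18, which displaces JAK1 from IFNAR2, was called, at 4.65 ± 0.90 (adjusted p 0.00534), while Socs1, an inhibitor of the JAK kinases, was at 1.90 ± 0.70 with an adjusted p of 0.105. Of 18 sensors and factors that act upstream of Ifnb1 6 were higher, with the largest differences for Zbp1 (5.54 ± 1.16, adjusted p 0.00798), Irf7 (4.79 ± 0.94, adjusted p 0.00552) and Ddx58 (2.71 ± 0.59, adjusted p 0.00967), and 5 were called without resting KO replicate 3. Irf7, which amplifies interferon transcription, stood at 7.16, 8.36 and 17.1 CPM in resting WT and 48.8, 32.0 and 815 in resting KO. None of the inhibitors, sensors and factors was called lower.

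Of the 7 genes tested that are induced mainly through the type II receptor, 3 were higher in resting KO, namely Cd74 (1.8 ± 0.34, adjusted p 0.00445), Fcgr1 (1.79 ± 0.49, adjusted p 0.0321) and H2-Ab1 (1.44 ± 0.33, adjusted p 0.0123). Without resting KO replicate 3, 4 were called (Cd74, H2-Aa, H2-Ab1 and H2-Eb1). Cd74 and H2-Ab1 belong to the MHC class II pathway. The share of all genes called in this comparison was 9.4%, and 808 of 11493 were called without that library. Of 14 cytokine receptor genes that use the same kinases 5 were higher, with the largest differences for Il21r (1.97 ± 0.35, adjusted p 0.00321), Csf2rb2 (1.24 ± 0.29, adjusted p 0.0143) and Il13ra1 (1.19 ± 0.28, adjusted p 0.0133). Without that library 2 were called, Il21r among them but not Csf2rb2 or Il13ra1. The type III receptor chain Ifnlr1 was below the filter. Plasmacytoid dendritic cells are strong interferon producers. Of their 6 markers 4 were tested, and Bst2 and Cox6a2 were called higher in resting KO. The markers summed to 209 to 540 CPM in resting KO and 154 to 159 in resting WT, with Klk1 at 0 and Siglech at 3 counts or fewer in each of these libraries. Cox6a2 averaged 1.66 ± 0.653 CPM in the KO libraries against 0.422 ± 0.12 in WT, Ccr9 0.621 ± 0.164 against 0.274 ± 0.0714, and Tcf4 123 ± 1.64 against 98.1 ± 19.6 (SD, n = 3 each). Bst2, which interferon also induces, made up 199 ± 186 CPM of the sum in resting KO and 56.8 ± 19.5 in resting WT (SD, n = 3 each). The part of these markers in the results was not tested.

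LPS raised most of the receptor chains and kinases in every genotype. Leaving out Ifnb1, 6 of 8 members were called in WT, all higher, where 28.5% of all genes were called. In KO it was 5 of 8, with a background of 26.9%, and in 3′F 6 of 8, with a background of 31.2%. Ifnar1, Ifnar2, Ifngr2, Jak2 and Jak3 were called in all 3 genotypes and under every alternative run. Their LPS libraries lay above all resting libraries of the same genotype, as held for 25.9% of all genes in WT, 23.8% in KO and 25.1% in 3′F.

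Jak2 had the largest fitted response among the receptors and kinases in each genotype. It went from 64.3 ± 6.53 to 194 ± 38.8 CPM in WT (SD, n = 3 each), a log2 difference of 1.60 ± 0.20 with an adjusted p of 2.98e-05. The LPS libraries of WT held 185, 162 and 237 CPM, those of KO 234, 248 and 261, and those of 3′F 222, 200 and 175. The response was 1.45 ± 0.20 in KO (adjusted p 6.11e-05) and 1.86 ± 0.21 in 3′F (adjusted p 6.44e-06). Jak3 rose by 1.22 ± 0.18 in WT, 1.38 ± 0.18 in KO and 1.38 ± 0.18 in 3′F, from a low resting level of 8.61 to 14.7 CPM in WT and KO libraries.

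The receptor chains of chromosome 16 rose by 0.83 to 1.19 over the 3 genotypes. In WT Ifnar1 rose by 1.14 ± 0.16, Ifnar2 by 0.85 ± 0.16 and Ifngr2 by 0.90 ± 0.12 (log2, SE, adjusted p 7.15e-05, 0.000794 and 4.91e-05). In KO the values were 0.83 ± 0.16, 1.00 ± 0.16 and 0.84 ± 0.12, and in 3′F 1.19 ± 0.16, 1.15 ± 0.16 and 0.95 ± 0.12. Over the 18 libraries the profiles of these 3 genes were the closest of any among the 9, with root mean square differences of 0.14 to 0.15 between mean-centred log2 CPM values. Il10rb, which lies between Ifnar2 and Ifnar1 and is shared by the type III interferon and interleukin-10 receptors, was at 157 ± 4.09 CPM in resting WT and 150.0 ± 13.4 with LPS (SD, n = 3 each). Its difference was −0.07 ± 0.09 in WT, −0.04 ± 0.09 in KO and −0.04 ± 0.09 in 3′F, none of them called.

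**Figure D5:**
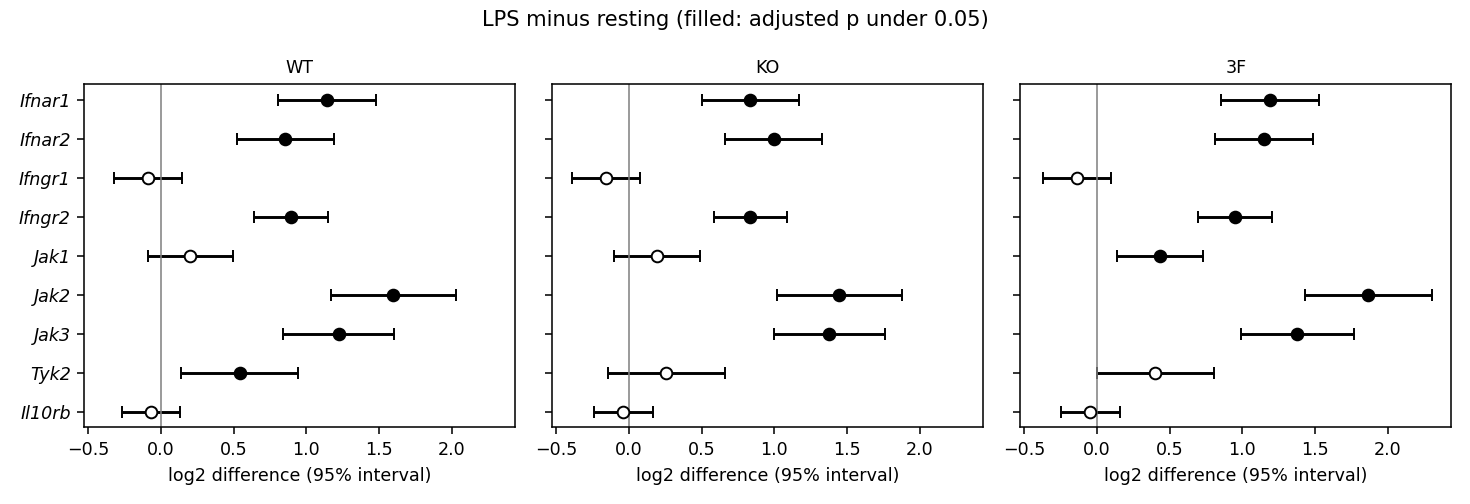
Fitted log2 differences of LPS minus resting in WT, KO and 3F for the 8 receptor and kinase genes and the neighbouring Il10rb, with 95% intervals; filled points passed an adjusted p of 0.05. Jak2 has the largest response in each panel (1.60, 1.45 and 1.86), and Ifngr1 and Il10rb lie at or just below 0.

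Ifngr1, Jak1 and Tyk2 had smaller fitted responses. Ifngr1 was the member whose fitted response was below 0 in each genotype, at −0.09 ± 0.11 in WT, −0.16 ± 0.11 in KO and −0.14 ± 0.11 in 3′F, and none was called. In KO it was called lower under 2 of 13 alternatives. Jak1 was called in 3′F (0.43 ± 0.14, adjusted p 0.0257) but not in WT (0.20 ± 0.14) or KO (0.19 ± 0.14). The 3′F call rested on resting 3′F replicate 3, at 148 CPM where replicates 1 and 2 held 237 and 228. Without it the response was 0.21 (adjusted p 0.101). Tyk2 was called in WT (0.54 ± 0.19, adjusted p 0.0427) but not in KO (0.26 ± 0.19, adjusted p 0.341) or 3′F (0.40 ± 0.19, adjusted p 0.12). The WT call was kept by 5 of 12 alternatives. Without resting KO replicate 3, whose resting Tyk2 level of 146 CPM exceeded all KO libraries with LPS, the KO response was 0.64 (adjusted p 0.000303).

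The size of the response did not pass a test of difference between genotypes for any member. For KO against WT 0 of 9 were called, with 0.00881% of all genes called, and for 3′F against WT 0 of 9, with 0% of all genes called. The count at an unadjusted p under 0.05 was 0 in both, with 4.93% and 1.79% of all genes, and 0 members were called under every alternative, DESeq2 and limma-voom included. Among the receptors and kinases the KO response differed from that of WT by −0.31 for Ifnar1 to 0.15 for Jak3, and that of 3′F by −0.14 to 0.29.

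With LPS no member passed the test between KO and WT. 0 of 9 members were called in KO against WT, where 4.79% of all genes were called, and 3 had an unadjusted p under 0.05 (Ifnar2, Ifngr2 and Jak3), as did 18% of all genes. DESeq2 called 0 members and 7.75% of the genes it tested, and limma-voom with quality weights called 2, Jak2 and Jak3, and 15.6% of all genes. The fitted differences of all 8 receptors and kinases were above 0, from 0.10 for Ifngr1 to 0.39 for Jak3. Their median was 0.23, against 0.01 over all genes. Among the receptors and kinases, every KO library lay above every WT library for Ifnar2, Ifngr2, Jak1 and Jak3, as held for 16.9% of all genes. Jak3 stood at 27.7, 21.8 and 29.9 CPM in WT and 32.9, 36.6 and 34.5 in KO with LPS. Its difference was 0.39 ± 0.17 (adjusted p 0.245). The macrophage markers summed to 69900 to 86480 CPM in KO and 45020 to 58490 in WT with LPS, most of it Lyz2 (65089 ± 8751 and 43838 ± 6402, SD, n = 3 each). Of the 7 markers 1 was called, Itgam, which was lower in KO (219.6 against 331 CPM), and the part of these markers in the differences was not tested. In KO against 3′F with LPS 0 of 9 were called, with 3.88% of all genes called, 1 at an unadjusted p under 0.05 (Ifnb1, with 16.9% of all genes), 0 by DESeq2 (6.54% of its genes) and 1 by limma-voom (Ifnb1, with 16.2% of all genes). Ifnb1 passed the filter through these same KO libraries, so its calls there carry no weight. In 3′F against WT with LPS it was 0 of 9 by edgeR and by every alternative, with 0.00881% of all genes called and 0 members at an unadjusted p under 0.05 (0.933% of all genes).

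The tools differed in how many pathway genes they called between KO and WT with LPS. Of all genes, edgeR called 4.79%, DESeq2 7.75% of those it tested and limma-voom 15.6%, and 18% had an unadjusted p under 0.05. None of the 20 genes induced through the type I receptor was called by edgeR, 1 had an unadjusted p under 0.05, DESeq2 called 0 and limma-voom 4, and the median difference was 0.60. Their sums were 9602, 4366 and 21130 CPM in WT, 14310, 19060 and 15200 in KO, and 10520, 11180 and 7429 in 3′F. Among the transducers Stat2 was at 0.48 ± 0.50 (adjusted p 0.692) and Irf9 at 0.29 ± 0.20 (adjusted p 0.507), and neither was called. Of the inhibitors edgeR called 1 of 10, DESeq2 2 and limma-voom 7, with 4 at an unadjusted p under 0.05. The edgeR call was Ptpn1, a phosphatase that acts on JAK2 and TYK2, at 0.53 ± 0.12 (adjusted p 0.0217), while Socs1 was at 1.03 ± 0.46 (adjusted p 0.248) and Usp18 at 0.84 ± 0.74 (adjusted p 0.626). Of the sensors and factors edgeR called 0 of 18, with 2 at an unadjusted p under 0.05, 1 by DESeq2 and 2 by limma-voom, and with Irf7 at 0.64 ± 0.79. The LPS response of the 20 type I-induced genes was called in 20 genes in WT, 3 in KO and 19 in 3′F. The shares of all genes were 28.5%, 26.9% and 31.2%. Without resting KO replicate 3 the response was called in 19 in KO (4040 of all 11493 genes tested), with a median of 4.05 in place of 1.35. For the difference in response between KO and WT edgeR called 0 of the 20 and DESeq2 3, 19 had an unadjusted p under 0.05, and the median was −3.40. Of all genes edgeR called 0.00881% and DESeq2 0.275% of those it tested, and 4.93% had an unadjusted p under 0.05. Without resting KO replicate 3 that median was −1.36, with 0 called and 10 at an unadjusted p under 0.05. Of the type II-induced genes Cd74 (1.30 ± 0.33, adjusted p 0.0328) and H2-Ab1 (1.19 ± 0.30, adjusted p 0.035) were higher, and of the cytokine receptors Il7r was lower (−1.29 ± 0.17, adjusted p 0.000416). For the type II-induced genes DESeq2 called 2 and limma-voom 5, and for the cytokine receptors 1 and 5.

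Levels can be set side by side per kb of exon. In resting WT the order was Ifngr1 (108 ± 2.52 CPM per kb), Ifnar1 (71.9 ± 3.26), Ifngr2 (48.6 ± 4.31), Jak1 (46.3 ± 4.09), Ifnar2 (24.8 ± 2.99), Tyk2 (12.8 ± 0.627), Jak2 (12.8 ± 1.30), Jak3 (2.81 ± 0.623) and Ifnb1 at 0 (SD, n = 3 each). Ifngr2 and Jak1 did not differ beyond their SD, nor did Tyk2 and Jak2. With LPS Ifnar1 moved to the top in each genotype, at 158 ± 19.1 CPM per kb in WT, 176 ± 24.5 in KO and 166 ± 13.4 in 3′F. Jak2 stood above Tyk2 in each genotype with LPS, at 38.7 ± 7.71 against 18.7 ± 2.68 CPM per kb in WT. Ifnb1 stayed lowest in every group, at 2.11 ± 0.834 CPM per kb in KO with LPS.

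For the 3 members with the widest range of group means, the most similar profiles over the 18 libraries were sought among all genes tested, by the root mean square difference of mean-centred log2 CPM. Jak2 was closest to Rps6ka4 (0.14), Cysltr1 (0.15) and Tbc1d13 (0.18), and Jak3 to Acvr1b (0.15), Fam49a (0.16) and Kif3c (0.18). For Ifnb1 the nearest were Pdgfrb (0.56), Klra2 (0.64) and Papd7 (0.64), a wide distance that goes with its low counts. All of these values come from the same libraries and share their depth.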

How the data were processed

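Raw counts per gene for 18 libraries were taken as deposited by the authors, who trimmed reads with cutadapt 1.8.3, removed ribosomal reads, aligned to mm10 with HISAT2 2.1.0 and counted reads by strand on Gencode M15 genes with featureCounts 1.5.3. The exon length of each gene, also deposited, gave CPM per kb. In R 4.3.3 all libraries entered 1 edgeR 4.0.16 quasi-likelihood fit with a coefficient per group, after filterByExpr (11357 genes kept) and TMM scaling (factors 0.812 to 1.15). Tests were two-sided, and a gene was called at a Benjamini-Hochberg adjusted p under 0.05 over all genes tested. The SE of a log2 difference is its size over the square root of F. DESeq2 1.42.0, limma-voom (limma 3.58.1), RLE factors, no filter, fits of the compared groups alone and leaving out libraries were alternatives. The procedure was tested on simulated data. The floor was 3 counts per library. The labels describe 3 mice of each genotype and separate cultures. Replicate pairs of a group differed by more than sampling noise.

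The members and lists were chosen with earlier results of these data known. The text names the 9 members, up to 3 called genes per pathway list and direction with the largest difference between KO and WT, and Stat2, Irf9, Socs1, Usp18, Ifng, Il10rb and Irf7 whatever they showed. Ifna7, Ifnlr1, H2-Aa, H2-Eb1 and the cell type markers given with values were named after their values were seen. Pathway counts without resting KO replicate 3, at rest and for the LPS response, were an alternative chosen after seeing the data, and the statement of calls by DESeq2 and limma-voom for the lists was added with them. A gene of the transducer list and a marker are not reported here.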

Additional observations from a re-analysis of the deposited data

How the results depend on the processing

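The count of members called moved by over 1.5 times in 4 comparisons. In resting KO against WT, 0 by the main method became 2 by DESeq2, 3 with limma-voom quality weights and 3 without resting KO replicate 3 and resting 3′F replicate 3, and 0 to 1 when 1 library was left out. In KO against WT with LPS, 0 became 2 with quality weights. In resting KO against 3′F, 1 became 0 with the compared groups alone, 2 by DESeq2, 2 with quality weights and 0 to 2 when 1 library was left out. In KO against 3′F with LPS, 0 became 1 with the compared groups alone and 1 with quality weights. The call with quality weights was Ifnb1, which these KO libraries brought past the filter. With any 1 library left out, Ifnar1, Ifnar2, Ifngr2, Jak2 and Jak3 kept their LPS response calls in each genotype. Over the alternatives the response of Tyk2 was called in 5 of 12 in WT, 3 of 13 in KO and 3 of 13 in 3′F. That of Jak1 was called in 0 of 12, 1 of 13 and 6 of 13. 2 values of resting KO against 3′F changed sign, Ifnb1 to −0.19 without resting KO replicate 3 and Ifngr1 to −0.0053 without resting KO replicate 1, within ranges up to 2.62 and 0.22 when 1 library was left out. The cause was not tested. Of 680 member differences recomputed, 623 kept their direction and their side of the threshold, 28 lost a call and 27 gained one. RLE factors moved CPM by 0.982 to 1.03 times. Resting KO against WT called 1062 genes with RLE factors, 396 with the compared groups alone, 2259 with quality weights and 1669 without both libraries, against 1067. Resting KO against 3′F called 16 genes with the compared groups alone, against 1464, and the median of all its genes was −0.12 by DESeq2 against 0.01.

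With a replicate block the LPS response of Tyk2 in WT lost its call, at 0.53 with an adjusted p of 0.0522. The count of members called changed in no other comparison. The labels do not say that a number marks the same mouse. Resting and LPS libraries of the same number and genotype deviated together with r from 0.028 to 0.318, over 0.1 in 5 of 9 pairs. Among the LPS libraries of their genotype, 8 of 9 resting libraries correlated best with that of their own number. Libraries of the same number but different genotypes, which are not from the same mouse, had r from −0.287 to 0.396. The depth limits Ifnb1 and the other ligands, whose differences of a few counts could not be detected.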
